A study of Homo sapiens with 18 samples.

Results

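The 10 genes below, which NF-kB is known to switch on, were followed across the RNA-seq libraries of a CRISPR interference study in OVCAR3, an established human cell line from an ovarian carcinoma. The 10 genes were the chemokines CXCL8, CXCL1, CXCL2, CXCL3, CCL2 and CCL20, the cytokines IL6 and LIF, and the feedback inhibitors NFKBIA and TNFAIP3, and they were taken by symbol from the 28277 genes of the count file. All cells carried dCas9-KRAB, a dead Cas9 fused to a repressor domain, delivered by lentivirus, and each guide was represented by clonal cells. The control clone carried a guide labelled sgControl (sgCtl below), and the knockdown (KD) clones carried sgXIST7 or sgXIST9, which target the long noncoding RNA XIST. Cells of each clone were grown in normoxia or exposed to hypoxia (1% oxygen for 24 h), with 3 replicates in each of the 6 groups and 18 libraries in all. Because a guide and its clone came together, an effect of XIST KD and a difference between clones cannot be told apart. The study calls the replicates biological, but neither it nor the labels said whether they came from separate cultures or days, so p-values measure the spread between these libraries only.

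NF-kB is a family of transcription factors that is held in the cytoplasm by inhibitory proteins. Ligands such as TNF and IL1 lead to kinases that mark the inhibitors for destruction, after which the factors enter the nucleus and activate cytokine and chemokine genes together with the genes of their own inhibitors. In ovarian cancer cells the pathway is known for the secretion of IL6 and CXCL8, which act on tumor growth, vessels and leukocytes.

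The libraries held between 11794375 and 24906936 counts, and 3 counts, the limit used here for calling a gene detected in a library, corresponded to between 0.13 and 0.266 CPM (counts scaled to library size). XIST, the targeted gene, was counted 4213 to 11209 times in sgCtl normoxia libraries, 1 to 5 times in sgXIST7 normoxia libraries and 650 to 1009 times in sgXIST9 normoxia libraries. In hypoxia it was counted 1589 to 5014 times in sgCtl, 0 to 3 times in sgXIST7 and 357 to 510 times in sgXIST9. Of 10 genes known to rise in hypoxia, 8 were called higher in sgCtl (9 without the hypoxia libraries numbered 3), 9 in sgXIST7 and 9 in sgXIST9. Of 10 markers of ovarian epithelial tumor cells, EPCAM, KRT8, KRT18, PAX8 and MSLN were tested. Group means were 160 to 243 CPM for EPCAM, 140 to 219 CPM for KRT18 and 4.41 to 34.7 CPM for KRT8. They were 1.51 to 4.55 CPM for PAX8 and 0.0739 to 0.579 CPM for MSLN. WT1 had 0 to 14 counts in a library and was not tested. CDH1, KRT7, SOX17 and MUC16 had at most 4 counts in any library, so these defining markers were near 0. The name OVCAR3 is used here as the labels give it, and the identity of the line was not tested. Of 10 leukocyte markers 2 were tested: CD68, a lysosomal protein, had 202 to 1051 counts and was called lower in hypoxia in sgXIST9, and ITGAM had 0 to 58 counts and was called higher in hypoxia in all clones (log2 fold changes 2.20, 2.45 and 3.68 in sgCtl, sgXIST7 and sgXIST9). PTPRC, the marker shared by leukocytes, had at most 1 count, CD3E and CSF1R at most 1 and FCGR3A 0. Above the limit of 3 counts, LYZ had up to 8 counts in a library, CD14 up to 6 and TYROBP up to 4. The summed level of the list was 14.2 to 27.0 CPM in hypoxia and 24.8 to 56.3 CPM in normoxia. The hypoxia libraries numbered 3 stood apart: within the hypoxia groups, log2 CPM correlated across genes at 0.987 to 0.988 between replicates 1 and 2 but at 0.953 to 0.984 with replicate 3. Responses of the tested members to hypoxia within each clone are therefore given with and without those 3 libraries. For the pathway lists described, counts of calls that differed without them are given.

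The classical chemokines and IL6 were not detected in OVCAR3 cells under any condition. CXCL8, CXCL1, CXCL2, CXCL3, IL6, CCL2 and CCL20 together gave 25 counts of 329953639 over the 18 libraries, and 106 of their 126 values were 0. No library held more than 3 counts of any of these 7 genes, so none passed the filter on low counts and no test was made. Only the remaining 3 genes, LIF, NFKBIA and TNFAIP3, were tested.

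CXCL1 and CXCL2, which attract neutrophils through the receptor CXCR2, had 0 counts in every library. CXCL8, the main human neutrophil attractant, had 1 count in all, in an sgXIST7 hypoxia library, and IL6, an inflammatory cytokine that signals through gp130, had 1 count in an sgCtl normoxia library. CXCL3, the third of the closely related CXCL1 group, had 10 counts spread over 8 libraries with at most 2 in any of them. CCL2, an attractant of monocytes, had 9 counts in 7 libraries with at most 3, and CCL20, the ligand of CCR6, had 4 counts in 3 libraries, each of them a hypoxia library. None of these values exceeded the limit of 3 counts, so no difference between oxygen levels or clones was detectable at this depth. Expressed per length as RPKM (CPM divided by exon length in kilobases), 3 counts of these genes amounted to at most 0.360 in any library. Reads of CXCL1, CXCL2 and CXCL3 can be hard to place over a small part of their exons only. Of the 50-base windows in these exons, 4.65%, 9.9% and 4.9% occur identically in an exon of another of the trio. The neighbors of these genes on chromosome 4, CXCL5, CXCL6, PF4, PF4V1 and PPBP, had at most 1 count in any library.

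**Figure D1:**
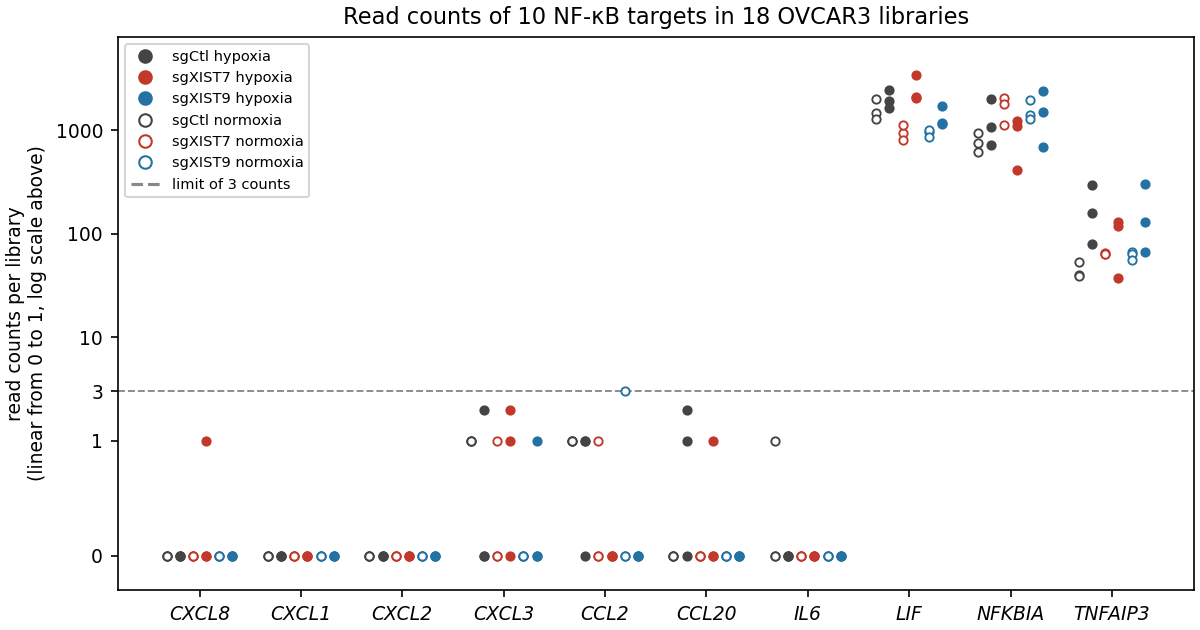
Read counts of the 10 genes in each of 18 libraries, with the vertical axis linear from 0 to 1 and logarithmic above, open points for normoxia, filled points for hypoxia, colors for the 3 clones and a dashed line at 3 counts. CXCL8, CXCL1, CXCL2, CXCL3, CCL2, CCL20 and IL6 never exceeded 3 counts, whereas LIF, NFKBIA and TNFAIP3 were counted in all 18 libraries.

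Matches to the letters of an NF-kB site were found upstream of undetected and detected genes. RefSeq promoter sequence (GRCh38.p14, 250 bases before to 50 after the start) was at hand for 8 of the 10 genes, all but LIF and CCL2. A match to the 10-letter NF-kB consensus (the kB site), searched on both strands, was found in 7 of the 8 promoters and in 5.72% of 27305 promoters. The letters GGANNTTCC, which overlap the consensus in most of these promoters, were found in 7 of the 8 and in 4.59% of all, and were the only match in CXCL8. The core of the hypoxia response element, ACGTG, was found in 1 of the 8 (TNFAIP3) and in 21.6% of all. The 60 bases around the matches are shown because they let the undetected genes be compared with NFKBIA and TNFAIP3. Capitals mark the matches to the consensus, or to GGANNTTCC in CXCL8.
CXCL8: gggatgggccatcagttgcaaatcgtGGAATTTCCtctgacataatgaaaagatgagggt
CXCL1: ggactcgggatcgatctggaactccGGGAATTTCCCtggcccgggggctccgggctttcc
CXCL2: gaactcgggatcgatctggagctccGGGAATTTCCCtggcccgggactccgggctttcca
CXCL3: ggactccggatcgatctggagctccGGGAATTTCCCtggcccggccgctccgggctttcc
IL6: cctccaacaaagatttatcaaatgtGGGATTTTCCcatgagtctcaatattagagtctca
CCL20: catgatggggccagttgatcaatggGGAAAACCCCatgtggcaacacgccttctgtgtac
NFKBIA: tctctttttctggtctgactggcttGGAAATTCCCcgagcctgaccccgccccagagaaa
TNFAIP3: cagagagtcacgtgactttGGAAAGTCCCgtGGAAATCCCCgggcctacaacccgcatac

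These stretches lie at chr4:73740452-73740511 on the plus strand (CXCL8), chr4:73869289-73869348 on the plus strand (CXCL1), chr4:74099239-74099298 on the minus strand (CXCL2), chr4:74038734-74038793 on the minus strand (CXCL3), chr7:22727102-22727161 on the plus strand (IL6), chr2:227813738-227813797 on the plus strand (CCL20), chr14:35404796-35404855 on the minus strand (NFKBIA) and chr6:137867173-137867232 on the plus strand (TNFAIP3). All are upstream of the first exon. The CXCL1 and CXCL3 stretches were identical at 56 of 60 bases without gaps, and CXCL1, CXCL2 and CXCL3 held the same run with its first base 79, 78 and 79 bases before the start. The matches of the other genes began 91 (CXCL8), 73 (IL6), 79 (CCL20), 81 (NFKBIA) and 67 (TNFAIP3) bases before the start, and TNFAIP3 held a further match 55 bases before it. A match is a description of letters and not a measurement of binding.

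LIF, a cytokine of the gp130 family that signals through LIFR, was the 1 secreted member that the cells expressed. On the RPKM scale, which allows levels of different genes to be compared, the mean over 18 libraries was 43.0 for NFKBIA, 23.5 for LIF and 1.17 for TNFAIP3. LIF lies on chromosome 22 (hg38, 30240453 to 30246759, minus strand). Its 3' untranslated region holds 7 copies of ATTTA in 3198 bases, or 2.19 per kb, against a median of 1.5 per kb over 19527 genes (GENCODE release 44, Ensembl canonical transcripts). The AU-rich nonamer TTATTTATT, bound by proteins that shorten the life of cytokine mRNAs, was present in 6 of the 10 genes and in 8.44% of all. It is shown in capitals for the tested genes that have it.
LIF: ctccgggcccTTATTTATTatttaaacat
TNFAIP3: gtaattcactTTATTTATTttattacaaa

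The density of ATTTA was above the median of all genes in each of the 10 genes and ranged from 2.19 per kb in LIF to 14.1 per kb in IL6. NFKBIA had 6 per kb and no nonamer, and TNFAIP3 had 2.51 per kb.

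LIF in normoxia was lower in both KD clones than in the control clone. It stood at 97.9, 99.9 and 115 CPM in the sgCtl libraries, at 40.7, 44.4 and 49.5 CPM in sgXIST7 and at 43.3, 53.2 and 49.8 CPM in sgXIST9. The KD libraries did not overlap the control libraries. The difference was 2.32-fold in sgXIST7 (log2 fold change -1.22, SE 0.258, adjusted p = 0.0022) and 2.14-fold in sgXIST9 (log2 fold change -1.10, SE 0.258, adjusted p = 0.005), and both KD comparisons used the same 3 control libraries. A gene was called when the adjusted p was below 0.01 and the absolute log2 fold change above 1, and LIF was the 1 member called in either comparison, against 7.76% of 14938 genes tested in sgXIST7 and 7.7% in sgXIST9. The call in sgXIST7 was lost without sgCtl normoxia replicate 3 or without sgXIST7 normoxia replicate 1 or 2, and the call in sgXIST9 was lost without any single one of the 6 libraries compared, with adjusted p up to 0.014 and 0.03 and log2 fold changes of -1.14 or stronger and -1.02 or stronger. LIF did not separate the KD clones in normoxia (log2 fold change of sgXIST7 over sgXIST9 -0.12, 95% CI -0.66 to 0.42, adjusted p = 0.85). The summed level of 10 stromal and endothelial markers also differed between these groups. It was 18.9 to 21.9 CPM in sgCtl, 113 to 157 CPM in sgXIST7 and 59.3 to 87.8 CPM in sgXIST9. Of the 10 markers 4 were tested, and COL1A1 and COL1A2 were called higher in both clones. COL1A2 had means of 0.275, 96.7 and 49.2 CPM in sgCtl, sgXIST7 and sgXIST9, and THY1 had 18.9, 38.1 and 25.2 CPM. DCN went the other way, with 3 to 11 counts in sgCtl libraries and at most 1 in KD libraries. LUM had 1 to 4 counts in sgCtl and at most 2 in KD libraries, and PDGFRB had up to 8, in sgXIST9. The endothelial markers PECAM1, CDH5 and KDR had at most 1 count in normoxia, and VWF at most 5. The summed level of the 10 ovarian epithelial markers in normoxia was 353 to 388 CPM in sgCtl, 345 to 407 in sgXIST7 and 436 to 451 in sgXIST9. Among them KRT8 was called higher in both KD clones (log2 fold changes 1.92 and 1.89), and MSLN in sgXIST7. The part of either marker list in the LIF difference was not tested.

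**Figure D2:**
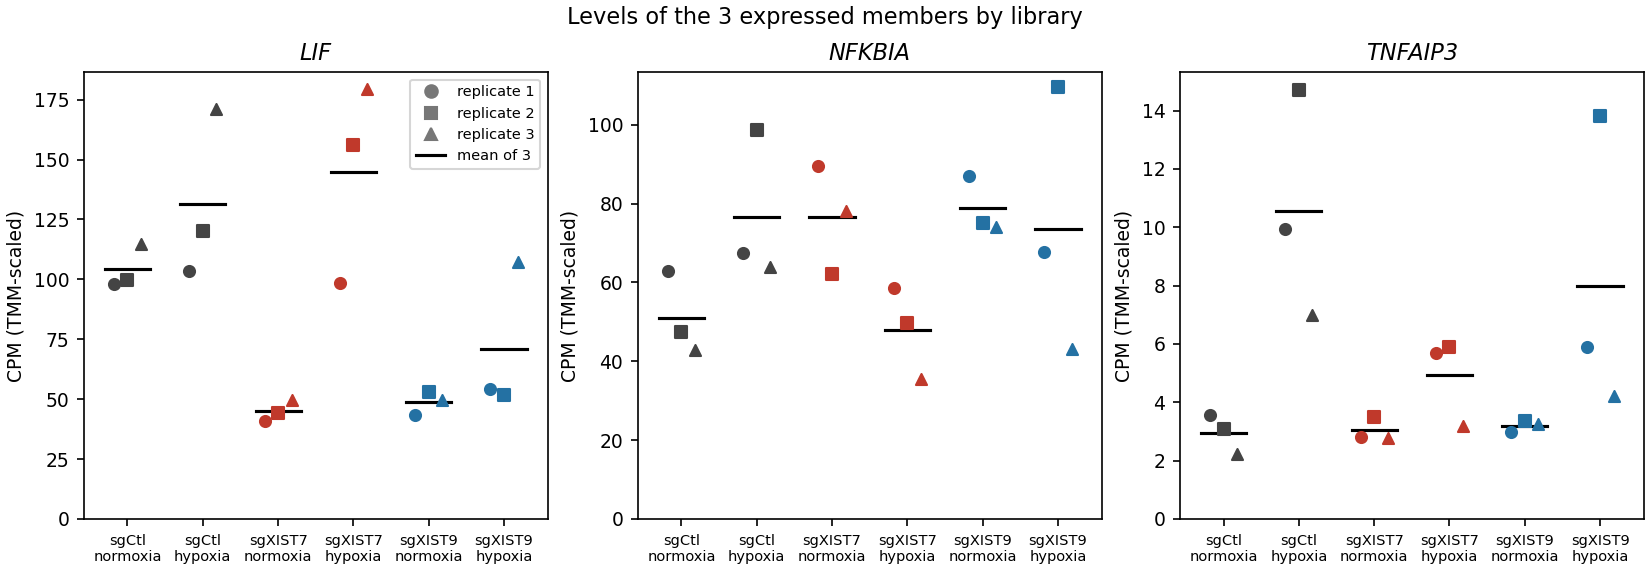
CPM of LIF, NFKBIA and TNFAIP3 in each library of the 6 groups, with marker shapes for replicates 1 to 3 and a line for the mean of 3. LIF in normoxia was at 97.9 CPM or more in sgCtl and at 53.2 CPM or less in the KD clones, and the hypoxia libraries numbered 3 had the highest LIF and the lowest TNFAIP3 of their groups.

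Hypoxia raised LIF in sgXIST7. It was at 98.6, 156 and 179 CPM in the sgXIST7 hypoxia libraries, all above the normoxia libraries of that clone, which was an increase from 44.9 ± 4.38 to 145 ± 41.6 CPM (SD, n = 3), or 3.22-fold (log2 fold change 1.69, SE 0.261, adjusted p = 3.2e-05). In sgCtl it was at 104, 120 and 171 CPM in hypoxia, which overlapped normoxia (log2 fold change 0.33, 95% CI -0.20 to 0.87, adjusted p = 0.28). In sgXIST9 it was at 54.1, 51.9 and 107 CPM, which also overlapped normoxia (log2 fold change 0.54, 95% CI 9e-05 to 1.08, adjusted p = 0.083). The highest hypoxia value in each clone came from the library numbered 3. Without the hypoxia libraries numbered 3, the log2 fold change was 1.52 in sgXIST7 (adjusted p = 2.7e-07), 0.11 in sgCtl (adjusted p = 0.57) and 0.13 in sgXIST9 (adjusted p = 0.5).

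The LIF response of sgXIST7 exceeded that of sgCtl by 1.35 on the log2 scale (95% CI 0.59 to 2.11), which missed the threshold over all genes (edgeR adjusted p = 0.03). The corresponding difference for sgXIST9 was 0.21 (95% CI -0.55 to 0.97, adjusted p = 0.78). Without the hypoxia libraries numbered 3 the sgXIST7 difference was 1.41 and passed the threshold (adjusted p = 0.00025), which a larger share of all genes then also passed. In hypoxia itself LIF no longer separated sgXIST7 from sgCtl (log2 fold change 0.14, 95% CI -0.40 to 0.67, adjusted p = 0.69), and sgXIST9 was lower than sgCtl by a log2 fold change of -0.89 (adjusted p = 0.014), which missed the threshold and passed it without the hypoxia libraries numbered 3 (-1.08, adjusted p = 0.00012). The direct comparison of the KD clones in hypoxia gave a log2 fold change of 1.03 for sgXIST7 over sgXIST9 (adjusted p = 0.011), and 1.27 without those libraries (adjusted p = 6.4e-05). From the highest mean to the lowest, the order of LIF was sgXIST7 hypoxia (145 CPM), sgCtl hypoxia (132 CPM), sgCtl normoxia (104 CPM), sgXIST9 hypoxia (71.0 CPM), sgXIST9 normoxia (48.7 CPM) and sgXIST7 normoxia (44.9 CPM), and the libraries of each group overlapped those of the next. LIF shares exon bases with LIF-AS1 and LOC91370 on the opposite strand over at most 86 bases, and the strand setting of the counting was not given. Both genes were low, at most 2.83 CPM for LIF-AS1 (in sgCtl hypoxia) and 0.937 CPM for LOC91370.

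TNFAIP3 was up-regulated by hypoxia in sgCtl and sgXIST9. The gene encodes A20, a ubiquitin-editing enzyme that shuts down signaling to NF-kB, and lies on chromosome 6 (hg38, 137867259 to 137883312, plus strand). In sgCtl it was at 3.56, 3.09 and 2.24 CPM in normoxia and at 9.94, 14.7 and 7.0 CPM in hypoxia, and in sgXIST9 at 2.99, 3.35 and 3.27 CPM in normoxia and at 5.88, 13.8 and 4.23 CPM in hypoxia. In both clones every hypoxia library was above every normoxia library. The increase was 3.59-fold in sgCtl (log2 fold change 1.84, SE 0.383, adjusted p = 0.00073) and 2.5-fold in sgXIST9 (log2 fold change 1.32, SE 0.373, adjusted p = 0.0064). In sgXIST7 the values were 2.81, 3.50 and 2.79 CPM in normoxia and 5.69, 5.89 and 3.19 CPM in hypoxia, which overlapped (log2 fold change 0.72, 95% CI -0.07 to 1.51, adjusted p = 0.11).

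The TNFAIP3 libraries numbered 3 were the lowest of each hypoxia group. Without them the log2 fold changes were 2.07 in sgCtl (adjusted p = 1.4e-05), 0.95 in sgXIST7 (adjusted p = 0.0099) and 1.63 in sgXIST9 (adjusted p = 0.00012). The call in sgXIST9 was lost without sgXIST9 hypoxia replicate 2, its highest library (log2 fold change 0.67), without any one of the sgXIST9 normoxia libraries, and when only the sgXIST9 libraries were fitted. A difference between the responses was not shown: sgXIST7 minus sgCtl was -1.12 (95% CI -2.25 to 0.0012, adjusted p = 0.19) and sgXIST9 minus sgCtl was -0.52 (95% CI -1.64 to 0.59, adjusted p = 0.61).

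In normoxia TNFAIP3 lay between 2.24 and 3.56 CPM in every library of every clone, with log2 fold changes over sgCtl of 0.04 (95% CI -0.79 to 0.86) in sgXIST7 and 0.12 (95% CI -0.71 to 0.94) in sgXIST9. In hypoxia sgXIST7 lay below sgCtl in all libraries, with a log2 fold change of -1.09 that missed the threshold (adjusted p = 0.024) and passed it without the hypoxia libraries numbered 3 (-1.09, adjusted p = 0.0077). From the highest mean to the lowest, the order was sgCtl hypoxia (10.5 CPM), sgXIST9 hypoxia (7.97 CPM), sgXIST7 hypoxia (4.92 CPM), sgXIST9 normoxia (3.20 CPM), sgXIST7 normoxia (3.03 CPM) and sgCtl normoxia (2.96 CPM), and the libraries of each group overlapped those of the next.

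NFKBIA was higher in hypoxia in every control library and lower in every sgXIST7 library, without passing the threshold in either clone. The gene encodes the inhibitor IkB-alpha, which binds NF-kB dimers and is resynthesized after they act, and lies on chromosome 14 (hg38, 35401510 to 35404754, minus strand). In sgCtl it was at 62.9, 47.5 and 42.9 CPM in normoxia and at 67.5, 98.6 and 63.9 CPM in hypoxia, and all hypoxia libraries were above all normoxia libraries. In sgXIST7 it was at 89.5, 62.1 and 78.2 CPM in normoxia and at 58.5, 49.6 and 35.6 CPM in hypoxia, and all hypoxia libraries were below all normoxia libraries. In sgXIST9 it was at 86.9, 75.2 and 74.2 CPM in normoxia and at 67.8, 110 and 43.2 CPM in hypoxia, and the groups overlapped.

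Neither response of NFKBIA passed the threshold. The log2 fold change was 0.59 in sgCtl (adjusted p = 0.081), -0.67 in sgXIST7 (adjusted p = 0.041) and -0.10 in sgXIST9 (adjusted p = 0.78). The difference between the responses of sgXIST7 and sgCtl was -1.26 (95% CI -2.07 to -0.45), which also missed it (edgeR adjusted p = 0.048). Opposite directions without overlap in sgCtl and sgXIST7 occurred in 160 of 14938 genes (1.07%). Without the hypoxia libraries numbered 3 the difference was -1.20 (adjusted p = 0.016), and the sgXIST9 response turned to 0.18. The log2 ratio of mean CPM in hypoxia replicates 1 and 2 to normoxia was 0.70 in sgCtl and -0.50 in sgXIST7. For replicate 3 alone it was 0.32 in sgCtl and -1.11 in sgXIST7. NFKBIA in normoxia was 1.5-fold and 1.54-fold the level of sgCtl in sgXIST7 and sgXIST9, again below the threshold (adjusted p = 0.14 and 0.12), and in hypoxia the log2 fold change over sgCtl was -0.68 in sgXIST7 (adjusted p = 0.054) and -0.06 in sgXIST9 (adjusted p = 0.89). From the highest mean to the lowest, the order was sgXIST9 normoxia (78.8 CPM), sgCtl hypoxia (76.7 CPM), sgXIST7 normoxia (76.6 CPM), sgXIST9 hypoxia (73.5 CPM), sgCtl normoxia (51.1 CPM) and sgXIST7 hypoxia (47.9 CPM), and the libraries of each group overlapped those of the next.

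**Figure D3:**
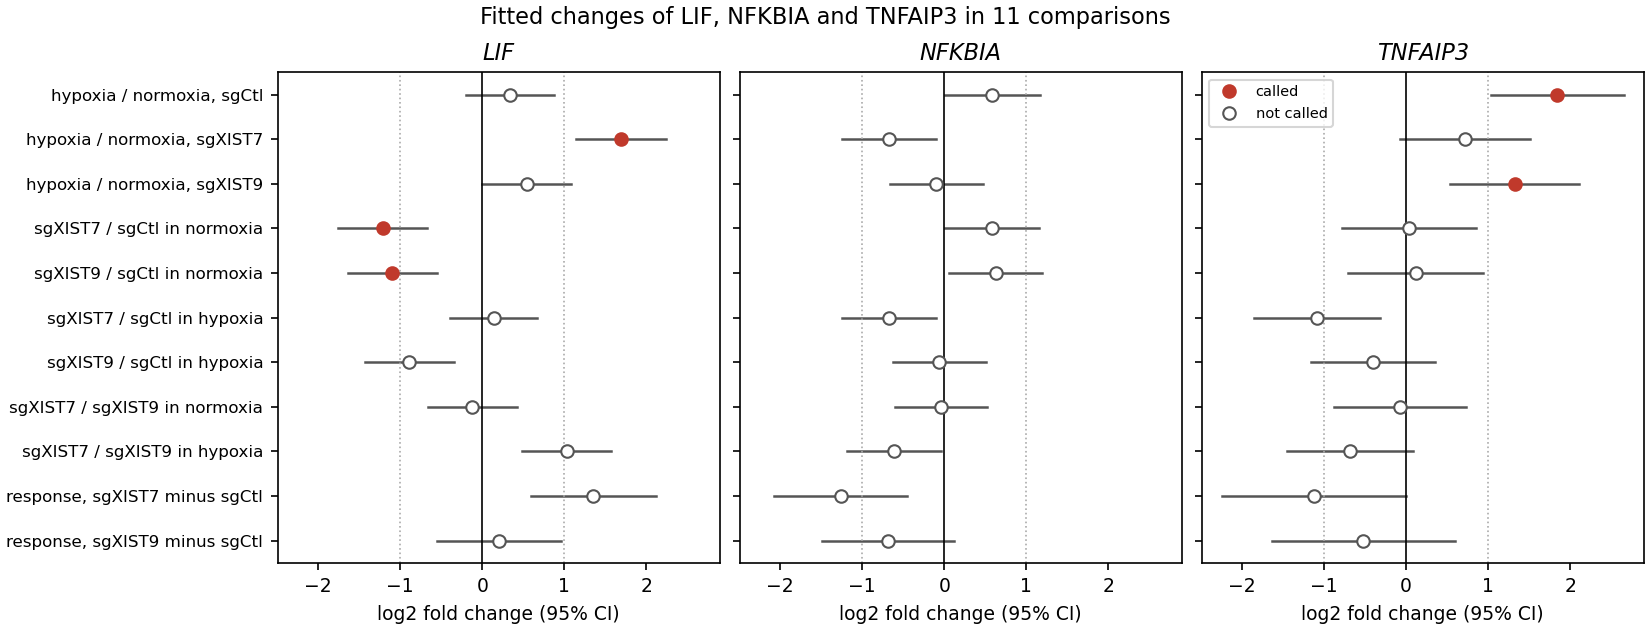
Log2 fold changes of LIF, NFKBIA and TNFAIP3 in 11 comparisons, with lines for 95% confidence intervals, filled points for called changes and dotted lines at -1 and 1. LIF was called in sgXIST7 hypoxia and in both KD comparisons in normoxia, TNFAIP3 in the hypoxia response of sgCtl and sgXIST9, and NFKBIA in none.

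Of the 3 tested members, 1 was called in each hypoxia response (TNFAIP3 in sgCtl, LIF in sgXIST7 and TNFAIP3 in sgXIST9), against 19.7%, 27.3% and 23.3% of all genes tested. No member was called by edgeR for sgXIST7 over sgCtl in hypoxia, where 2 had an unadjusted p below 0.05, DESeq2 called 0, and 14% of all genes were called. For sgXIST9 over sgCtl in hypoxia the edgeR count was 0, with 1 member at an unadjusted p below 0.05, 0 by DESeq2 and a background of 9.53%. Between the KD clones edgeR called 0 members in normoxia (0 at an unadjusted p below 0.05, 0 by DESeq2, background 3.4%) and 0 in hypoxia (2 at an unadjusted p below 0.05, 1 by DESeq2, background 4.46%). For a response that differed from sgCtl, edgeR called 0 members in sgXIST7 (2 at an unadjusted p below 0.05, 1 by DESeq2, background 1.52%) and 0 in sgXIST9 (0 at an unadjusted p below 0.05, 0 by DESeq2, background 1.01%). The libraries of the groups compared did not overlap for 2 members in the hypoxia response of sgCtl, 2 in sgXIST7 and 1 in sgXIST9, against 54.9%, 63.9% and 65.9% of all genes. Against sgCtl in normoxia this held for 1 member in sgXIST7 and 2 in sgXIST9 (background 45.5% and 53.9%), and in hypoxia for 2 in sgXIST7 and 0 in sgXIST9 (background 40.5% and 33.7%). Between the KD clones it held for 0 members in normoxia and 0 in hypoxia (background 40.7% and 29.7%). For a single gene, 3 libraries against 3 allow an exact permutation p no smaller than 0.1.

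Over the 18 libraries, which fall into 6 groups and are not independent, Pearson's r of log2 CPM was -0.637 between LIF and NFKBIA, 0.247 between LIF and TNFAIP3 and 0.424 between NFKBIA and TNFAIP3. The genes whose log2 CPM was most like LIF were MAP3K2 (r = 0.967), USP37 (0.965) and GDF15 (0.943). Those most like TNFAIP3 were ZBTB40 (r = 0.948), HHIPL2 (0.943) and PNLDC1 (0.939), and those most like NFKBIA were CIAO3 (r = 0.871), SSNA1 (0.845) and PREB (0.836).

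The NF-kB subunits and kinases were detected, whereas most ligands that activate the pathway were not. Of 10 ligands that activate NF-kB, 8 never exceeded 3 counts, among them TNF, LTB and IL1A at 0 in every library. IL18 was the 1 ligand tested, with 15 to 17 counts in sgCtl normoxia libraries, 1 in each sgXIST7 and 2 to 3 in each sgXIST9 normoxia library, and it was called lower in both KD clones in normoxia. All 10 NF-kB subunits and kinases were tested, and in hypoxia 3 were called higher in sgCtl, 2 in sgXIST7 and 1 in sgXIST9, which is near the share of all genes called in either direction (19.7%, 27.3% and 23.3%). In sgXIST9 CHUK, which encodes the kinase IKK-alpha, was also called, as lower (log2 fold change -1.09). NFKB2, the precursor of the p52 subunit, was up-regulated in all 3 clones, from 38.2 ± 1.27 to 145 ± 51.4 CPM in sgCtl, with log2 fold changes of 1.92, 1.67 and 1.35 in sgCtl, sgXIST7 and sgXIST9. RELA, the p65 subunit, was called in sgCtl (log2 fold change 1.19) and sgXIST7 (1.34). Their medians were 0.05, 0.11 and 0.09 in the 3 clones on the log2 scale, beside 0.02, 0.01 and 0.09 over all genes tested. Without the hypoxia libraries numbered 3 the count in sgCtl was 2 in place of 3, since RELA stood at 0.98.

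Of 13 other inhibitors and feedback genes tested, 5 were called higher in sgCtl hypoxia (TNIP1, NFKBIZ, NFKBIE, ZC3H12A and CYLD), with a median log2 fold change of 0.68, and 1 in each KD clone, with medians of 0.51 and 0.20, beside 19.7%, 27.3% and 23.3% of all genes called in either direction. TNIP1, a partner of A20, was up-regulated in all clones with log2 fold changes of 2.58, 2.59 and 2.67. Among 7 tested secreted targets outside the 10 genes, the chemokine CXCL11, the gp130 cytokine IL11 and the pattern recognition protein PTX3 were each called higher in hypoxia in all clones. CSF1 was called lower in hypoxia in sgXIST9 (log2 fold change -1.13, edgeR adjusted p = 0.003). It was also lower in sgXIST7 (-0.98, adjusted p = 0.0071), which missed only the fold change threshold, and in sgCtl (-0.77, adjusted p = 0.068). In normoxia CSF1 and C3 were called higher in both KD clones than in sgCtl, and IL11 in sgXIST7. CXCL11 was at 0.230 to 0.309 CPM in sgCtl normoxia and at 4.96 to 8.88 CPM in sgCtl hypoxia, whereas 9 of the 21 secreted targets listed never exceeded 3 counts. Of 13 other cellular targets tested, 3 were called higher in sgCtl, 4 in sgXIST7 and 3 in sgXIST9, near the shares of all genes just given, and BIRC3, an inhibitor of apoptosis, rose from 2.80 ± 0.185 to 59.6 ± 22.8 CPM in sgCtl and was called in all clones. Without the hypoxia libraries numbered 3, the inhibitors called in sgXIST7 were 2 in place of 1, the secreted targets 4 in place of 3 in sgCtl and in sgXIST7, and the cellular targets 4 in place of 3 in sgCtl and in sgXIST9.

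**Figure D4:**
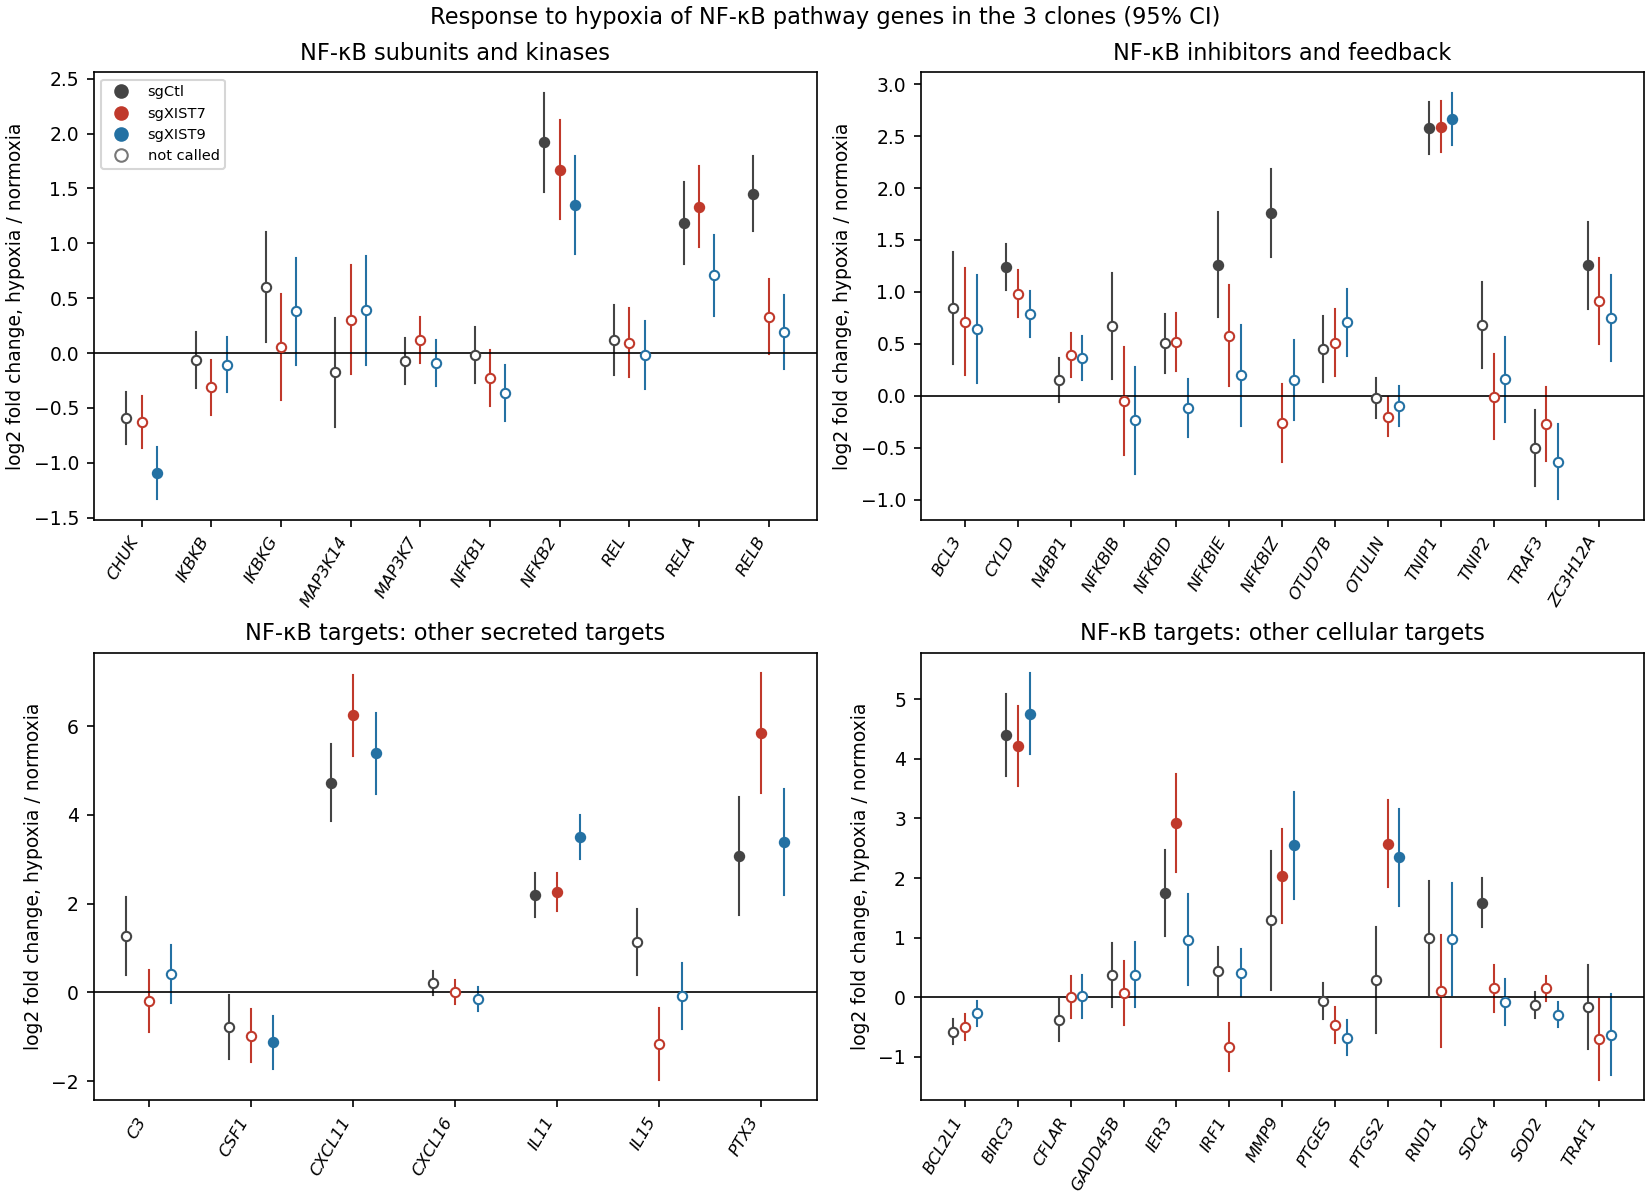
Log2 fold changes from normoxia to hypoxia of NF-kB subunits and kinases, inhibitors and feedback genes, and other targets in the 3 clones, with 95% confidence intervals and filled points for called changes. TNIP1, NFKB2, BIRC3, CXCL11, IL11 and PTX3 were called higher in all clones, and RELB, NFKBIZ and SDC4 were among the genes called higher in sgCtl alone.

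A few pathway genes had a called difference in response between a KD clone and sgCtl: in each KD clone 1 of the 10 subunits and kinases and 1 of the 13 inhibitors, and of the 13 cellular targets 2 in sgXIST7 and 1 in sgXIST9, against 1.52% and 1.01% of all genes. No such difference was called in either KD clone among the ligands, upstream receptors and adaptors, or other secreted targets. The receptors of the 10 genes and the gp130 pathway genes also had none. Without the hypoxia libraries numbered 3, receptors and adaptors had 3 in sgXIST7 and 1 in sgXIST9, and secreted targets 1 in each. Subunits then had 1 and 2, inhibitors 2 and 2, and cellular targets 3 and 1. Member receptors and gp130 genes had 1 each in sgXIST7. RELB, the partner of p52, was, from low to high, at 12.1, 13.8 and 15.3 CPM in sgCtl normoxia and at 32.3, 36.8 and 44.2 CPM in sgCtl hypoxia, and between 13.2 and 20.2 CPM in all sgXIST7 and sgXIST9 libraries. Its response was smaller than in sgCtl by a log2 difference of -1.12 in sgXIST7 (adjusted p = 0.0081) and -1.26 in sgXIST9 (adjusted p = 0.005). NFKBIZ, which encodes a nuclear IkB protein that co-activates IL6 and other genes, rose in sgCtl from 5.68 ± 0.714 to 19.1 ± 6.61 CPM. In sgXIST7 it was already at 83.4 ± 1.23 CPM in normoxia and in sgXIST9 at 21.0 ± 1.05 CPM, which was higher than sgCtl by 3.87 (adjusted p = 6.3e-10) and 1.88 (adjusted p = 2.2e-06) on the log2 scale. In hypoxia NFKBIZ was at 69.6 ± 8.06 CPM in sgXIST7, with every library below those of normoxia, though this fall was not called. In sgXIST9 hypoxia it was at 23.3 ± 1.85 CPM. The difference in its response was -2.02 in sgXIST7 (adjusted p = 0.00041) and -1.61 in sgXIST9 (adjusted p = 0.0033). SDC4, a cell surface proteoglycan, differed by -1.44 and -1.67 (adjusted p = 0.005 and 0.0022). Its mean rose from 20.9 CPM in normoxia to 62.7 CPM in hypoxia in sgCtl. In normoxia it was already at 39.3 CPM in sgXIST7 and 49.3 CPM in sgXIST9, and in hypoxia at 43.6 and 46.8 CPM. These 6 differences remained called without the hypoxia libraries numbered 3, where a larger share of all genes was called, and the comparisons shared the sgCtl libraries.

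**Figure D5:**
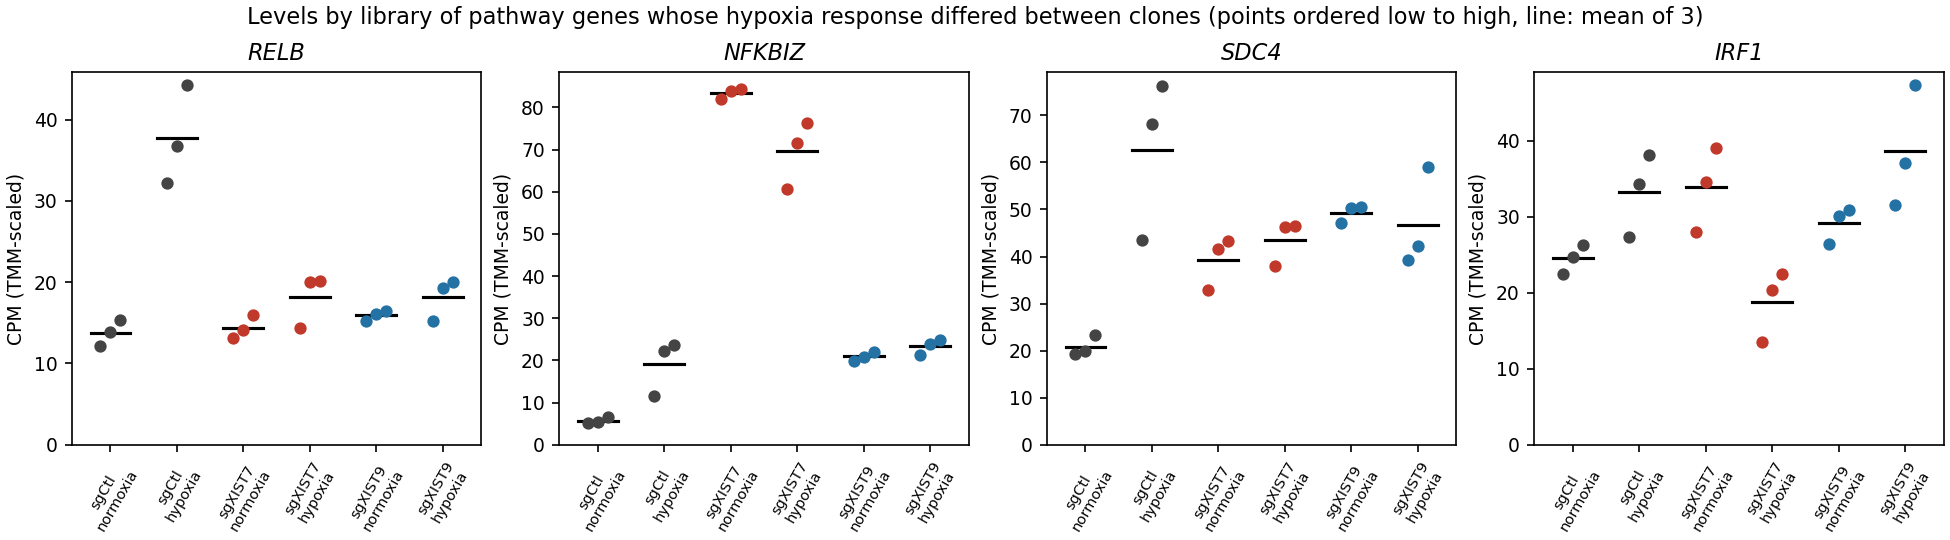
CPM of RELB, NFKBIZ, SDC4 and IRF1 in the 3 libraries of each group, ordered from low to high within a group, with a line for the mean of 3. RELB in sgCtl hypoxia lay at 32.3 CPM or more and at 20.2 CPM or less in every other group, and NFKBIZ was at 82.0 CPM or more in sgXIST7 normoxia against at most 6.51 CPM in sgCtl normoxia.

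CXCR1, CXCR2 and ACKR1, which bind CXCL8 and its relatives, never exceeded 3 counts, while IL6ST (gp130), LIFR and IL6R were tested. IL6ST was up-regulated by hypoxia in all clones, with log2 fold changes of 1.31, 1.46 and 1.29, and the receptors called in sgCtl were 2 in place of 1 without the hypoxia libraries numbered 3. LIFR, the receptor subunit for LIF, was at 20.1 to 21.1 CPM in sgCtl normoxia, 5.62 to 7.33 CPM in sgXIST7 and 2.19 to 4.96 CPM in sgXIST9, and was called lower in both clones (log2 fold change -1.62 with adjusted p = 1e-04 in sgXIST7, and -2.49 with adjusted p = 1.7e-06 in sgXIST9). Hypoxia raised LIFR in sgXIST7 (log2 fold change 1.25) and sgXIST9 (1.71). In sgCtl it was at 29.2 to 40.0 CPM in hypoxia, above all normoxia libraries, with a log2 fold change of 0.72 that missed the threshold (adjusted p = 0.017), and no difference in response passed the test (adjusted p = 0.32 for sgXIST7 and 0.1 for sgXIST9). IL6R was called lower than in sgCtl in sgXIST9 normoxia (log2 fold change -1.20, adjusted p = 0.0072) but not in sgXIST7 normoxia (-0.61, adjusted p = 0.16). In hypoxia it was called lower in sgXIST7 (-2.19, adjusted p = 3.2e-05) and in sgXIST9 (-1.44, adjusted p = 0.0013), where the libraries overlapped those of sgCtl.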

How the data were processed

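Total RNA of OVCAR3 cells was depleted of ribosomal RNA and sequenced as paired, stranded libraries. The authors trimmed reads with Trimmomatic, checked them with FastQC, aligned them to hg38 with HISAT2 and deposited whole-number counts per gene from featureCounts; versions and the strand setting were not given in the sources used here. Of 28279 lines, 2 were broken and left out, which left 28277 genes.

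Counts were tested with edgeR 4.0.16 in R 4.3.3 (TMM scaling, filterByExpr with a minimum count of 10, 1 quasi-likelihood fit of the 6 groups), with Benjamini-Hochberg adjustment over the 14938 genes tested in each of 11 comparisons. DESeq2 1.42.0, other scalings, filters, thresholds, a replicate block and leaving out libraries were alternatives. Scripts were tested on simulated data. The members and gene lists were chosen with earlier results of these data known. From each pathway list at most 4 called genes per comparison, ordered by absolute log2 fold change, were eligible to be named; others were named after their values were seen. Detection limits cover counting error only. In bulk RNA, fewer cells of a type and less RNA per cell cannot be told apart. Replicate numbers were not treated as pairs, because not every same-numbered pair correlated above 0.1 in its deviations from group means (range -0.073 to 0.57, and 0.38 to 0.57 among the hypoxia libraries numbered 3).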

Additional observations from a re-analysis of the deposited data

Results flagged for a closer look

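The responses to hypoxia of several genes differed between a KD clone and sgCtl by a test of the difference itself, given here as the log2 response of the KD clone minus that of sgCtl, with edgeR adjusted p over all genes. Both KD clones were compared with the same sgCtl libraries. NFKBIA differed by -1.26 in sgXIST7 (adjusted p = 0.048), which missed the threshold of 0.01, and its libraries moved in opposite directions in sgCtl and sgXIST7.

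RELB differed by -1.12 in sgXIST7 (adjusted p = 0.0081) and -1.26 in sgXIST9 (adjusted p = 0.005). NFKBIZ differed by -2.02 in sgXIST7 (adjusted p = 0.00041) and -1.61 in sgXIST9 (adjusted p = 0.0033), and SDC4 by -1.44 (adjusted p = 0.005) and -1.67 (adjusted p = 0.0022). IRF1, a transcription factor of the interferon response, differed by -1.28 in sgXIST7 (adjusted p = 0.009), and the cytokine IL15 by -2.30 (adjusted p = 0.014), which missed the threshold. The immediate early gene IER2 differed by 1.13 in sgXIST7 (adjusted p = 0.0026). ADM, a hypoxia-induced peptide hormone, differed by 4.36 in sgXIST7 (adjusted p = 5e-06) and 3.76 in sgXIST9 (adjusted p = 3.7e-05). The collagen gene COL1A1 differed by 2.92 in sgXIST9 (adjusted p = 0.038), which missed the threshold. Like NFKBIA, the libraries of NFKBIZ, IRF1 and IL15 moved in opposite directions in sgCtl and sgXIST7 without overlap. Over all genes tested 1.07% did so. Those of COL1A1 moved in opposite directions in sgCtl and sgXIST9. IRF1 stood at -1.21, IER2 at 1.02 and ADM at 4.31 in sgXIST7 and 3.52 in sgXIST9 without the hypoxia libraries numbered 3, all still called. Groups of 3 libraries were too small for a search for single outlying libraries.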

How the results depend on the processing

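LIF in sgXIST7 and TNFAIP3 in sgCtl stayed called higher in hypoxia in all 27 settings. Counts of called members changed elsewhere. In hypoxia against normoxia in sgXIST9 the count of 1 became 0 with only the compared groups fitted, and was 0 to 1 with single libraries left out. In normoxia it was 0 to 1 with single libraries left out for sgXIST7 and for sgXIST9 against sgCtl, and 0 for sgXIST9 without a filter beyond 1 count. In hypoxia, where no member was called, leaving out the libraries numbered 3 gave 1 for sgXIST7 against sgCtl, 1 for sgXIST9 against sgCtl and 1 between the KD clones, and leaving out single libraries gave 0 to 1 in each. A threshold of 0.05 gave 1 for sgXIST7 against sgCtl and 1 between the KD clones, and median-of-ratios factors and DESeq2 each gave 1 between the KD clones. For the response of sgXIST7 against sgCtl the count of 0 became 1 with DESeq2, 1 without the hypoxia libraries numbered 3, 2 at a threshold of 0.05, and 0 to 1 with single libraries left out. With the replicate block, 1 member was called for sgXIST7 against sgCtl in hypoxia, 1 between the KD clones in hypoxia and 1 for the sgXIST7 response; 16 of 18 libraries correlated best with their own number, a hint from the data and not from the design.

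Without the hypoxia libraries numbered 3, NFKBIA turned from -0.10 to 0.18 in the sgXIST9 response to hypoxia and from -0.06 to 0.092 for sgXIST9 against sgCtl in hypoxia (log2). Leaving out single libraries turned the sign of values near 0: NFKBIA spanned -0.50 to 0.18 in the sgXIST9 response, -0.47 to 0.21 for sgXIST9 against sgCtl in hypoxia and -0.17 to 0.092 between the KD clones in normoxia. TNFAIP3 spanned -0.14 to 0.19 and -0.057 to 0.27 for sgXIST7 and sgXIST9 against sgCtl in normoxia. LIF spanned -0.045 to 0.37 for sgXIST7 against sgCtl in hypoxia and -0.21 to 0.44 for the difference in response of sgXIST9. The causes were not tested. Of 5000 values of other named genes, 279 lost their call and none changed sign. These genes were taken because they were called in the main fit, which made a change of sign unlikely. Of 4455 counts of called genes per list, 385 moved.

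Over all genes, the share called for the sgXIST7 response difference was 1.52%, against 3.67% with DESeq2, 2.48% with the block, 4.73% at 0.05, 0.544% with only the compared groups and 8.43% without the hypoxia libraries numbered 3. For sgXIST9 it was 1.01%, against 2.44%, 1.36%, 3.13%, 0.617% and 5.38%, and upper-quartile factors moved the share of calls that were higher from 65.6% to 75.7%. With only the compared groups, the shares in hypoxia were 7.92% for sgXIST7 against sgCtl, 4.5% for sgXIST9 against sgCtl and 2.25% between the KD clones. The 7 members at 3 counts or fewer are limited by depth.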
